A study of Homo sapiens with 4 samples.

Results

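The NEDD4 family comprised 9 human genes, NEDD4, NEDD4L, ITCH, WWP1, WWP2, SMURF1, SMURF2, HECW1 and HECW2, which encode HECT-type ubiquitin ligases. Each symbol had 1 entry, so the family made up 9 of the 23362 entries of a gene expression table from MKN28 gastric adenocarcinoma cells. The genes were selected by family membership. The family was selected on measured values, namely the large difference of NEDD4L between the wild-type KIAA1324 library and those labelled as mutants, so that difference is given as a description. NEDD4L stood at 1753 FPKM in the wild-type library and between 108 and 199 FPKM in the other 3 libraries, whereas no other family gene differed by more than 1.89-fold in FPKM between any of the 4 libraries. FPKM, fragments scaled to transcript length and to the mapped fragments of a library, is thus a level per length, so levels were compared between genes on this scale.

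Ubiquitin ligases attach ubiquitin, a small protein, to substrates and thereby mark them for degradation, sorting or altered activity. HECT ligases first take ubiquitin from an E2 conjugating enzyme onto a catalytic cysteine of their own and then pass it to the substrate. The NEDD4 family carries a C2 domain that binds phospholipids, WW domains that bind proline-rich PY motifs of substrates and adaptors, and a carboxy-terminal HECT domain. In epithelial cells the family is known for removing ion channels, growth factor receptors and TGF-β receptors from the cell surface, and several members act on transcription factors. KIAA1324 is a transmembrane glycoprotein, and no relation of it to this family is assumed here.

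Coding bases around the catalytic cysteine codon are shown because the family shares this feature. In each MANE Select transcript the codon was located as the last run of histidine, threonine, cysteine and phenylalanine codons in the reading frame. Each window holds 45 coding bases, read 5′ to 3′ on the gene's strand with introns removed, and the capitals mark the cysteine codon. The bases come from GENCODE v44 transcripts placed on GRCh37, and WWP1 is not shown.
NEDD4L: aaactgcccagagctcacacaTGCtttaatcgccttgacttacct
NEDD4: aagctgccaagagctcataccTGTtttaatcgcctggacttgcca
ITCH: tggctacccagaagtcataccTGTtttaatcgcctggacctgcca
WWP2: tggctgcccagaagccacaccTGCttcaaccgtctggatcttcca
SMURF1: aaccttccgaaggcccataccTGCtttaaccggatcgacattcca
SMURF2: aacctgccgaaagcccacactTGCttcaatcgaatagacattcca
HECW1: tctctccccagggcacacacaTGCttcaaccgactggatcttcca
HECW2: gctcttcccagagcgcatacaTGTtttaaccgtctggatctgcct

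NEDD4 shared 37 of the 45 window bases with NEDD4L, more than any of the others, which shared between 29 and 33. The cysteine codon was codon 942 of 975 in NEDD4L and codon 867 of 900 in NEDD4, with 33 codons after it in both. In the other 7 genes 32 codons followed it. On GRCh37 the windows span, with their introns, chr18:56058769-56063420 for NEDD4L, chr20:33092186-33095521 for ITCH, chr16:69973294-69973765 for WWP2 and chr7:43594379-43601447 for HECW1, all on the plus strand. On the minus strand they span chr15:56122176-56122734 for NEDD4, chr7:98628285-98630682 for SMURF1, chr17:62542044-62542403 for SMURF2 and chr2:197066079-197080599 for HECW2. In 7 of the 9 genes an intron divides the cysteine codon after its base 2, and in HECW1 and HECW2 the intron lies 10 bases before the codon. These sequences are reference sequence and were not measured in the cells.

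The study addressed whether N-glycosylation of KIAA1324 matters for its effects in gastric cancer cells. A form without the transmembrane domain, inactive in the authors' earlier work, served as a nonfunctional comparison. Poly(A) RNA was sequenced from 4 MKN28 lines made with retroviral, doxycycline-inducible vectors and drug selection with G418 and puromycin. The Luc line carried luciferase as control, WT carried intact KIAA1324, 3NQ carried KIAA1324 with 3 asparagines of putative N-glycosylation sites replaced by glutamine, and ΔTM carried KIAA1324 without its transmembrane domain. Whether a line was 1 clone or a pool, and whether doxycycline was present when RNA was taken, is not given in the sources used here. There was 1 library per group, so no spread between replicates could be estimated, no test was made and every difference below has no replicate check.

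KIAA1324 itself was at 2.86 FPKM in Luc, reached 11185 in WT and 8197 in 3NQ, and was listed at 0 in the fourth library, which is therefore called the library labelled ΔTM throughout. Summed FPKM was similar, from 560540 to 585104 per library, and between 11297 and 11406 genes reached 1 FPKM. Read counts were not used here and the depth behind each value is unknown. The epithelial markers EPCAM (345 to 391 FPKM), CDH1 (233 to 272 FPKM) and KRT19 (478 to 601 FPKM) were high in all 4 libraries. The keratins KRT8 and KRT18 were also high but differed between libraries. KRT8 was at 8501 FPKM in Luc and 4510 in WT, while 3NQ had 6362 and the library labelled ΔTM had 6912, and KRT18 ran from 2115 FPKM in WT to 3684 in Luc, so WT was lowest for both. Their part in the family values was not tested. The leukocyte marker PTPRC was at most 0.115 FPKM and the fibroblast marker DCN at most 0.0492 FPKM, although COL1A1 was at 12.1 to 15.3 FPKM.

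By median level over the 4 libraries, the order was NEDD4L, NEDD4, ITCH, WWP1, SMURF2, WWP2, SMURF1, HECW1 and HECW2. The ranges over the libraries overlapped only for 2 neighbouring pairs, WWP2 with SMURF1 and HECW1 with HECW2. Several other neighbours lay close to each other, as the lowest NEDD4L value was 108 FPKM against a highest NEDD4 value of 102 FPKM. With 1 library per group, an order between such neighbours has no error attached. For the ratios below, genes at 1 FPKM or more in at least 1 library were kept, which were 11769 of the entries and 8 of the 9 family genes. HECW2 was below 1 FPKM in all 4 libraries.

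**Figure D1:**
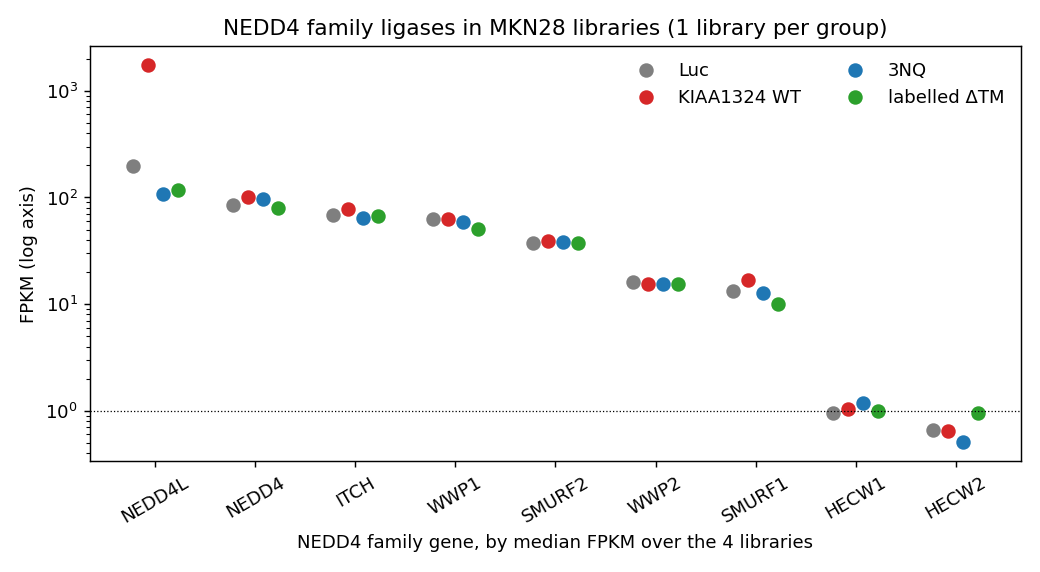
FPKM on a log axis of each NEDD4 family gene, ordered by median, with 1 point per library in Luc, KIAA1324 WT, 3NQ and the library labelled ΔTM; the dotted line marks 1 FPKM. The WT point of NEDD4L at 1753 FPKM stands far above its other 3 points, while the points of any other gene differ by at most 1.89-fold (HECW2).

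NEDD4L is known for removing the epithelial sodium channel from the cell surface and for ubiquitylating activated SMAD2 and SMAD3. The gene (ENSG00000049759) lies on the plus strand of chromosome 18, from 55711599 to 56068772 on GRCh37. Its level was 199 FPKM in Luc and 1753 in WT, while 3NQ had 108 and the library labelled ΔTM had 118. WT was thus alone at a high level, and Luc lay above 3NQ and the library labelled ΔTM. In WT, NEDD4L ranked 20 by FPKM among all 23362 entries, whereas it ranked 422 in Luc and, of the rest, 931 in 3NQ and 840 in that labelled ΔTM. In a bulk sample, fewer cells with a transcript and less transcript per cell cannot be told apart.

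In FPKM, NEDD4L was 8.82-fold higher in WT than in Luc, 16.2-fold higher than in 3NQ and 14.9-fold higher than in the library labelled ΔTM. Ratios were also taken on the log2(FPKM + 1) scale, which understates differences of low genes. On that scale the ratio was 3.13 for WT against Luc, 4.01 for WT against 3NQ and 3.88 for WT against the library labelled ΔTM. By size, these ranked 19, 11 and 17 among the 11769 genes. Against Luc, 3NQ had a log2 ratio of -0.87 and the library labelled ΔTM one of -0.75, which were ranks 165 and 202. Those libraries differed from each other by a log2 ratio of -0.12 (3NQ against labelled ΔTM), and both are set against the same Luc library.

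Of the genes next to NEDD4L on chromosome 18, only NARS was high enough to compare, and it did not share the WT level of NEDD4L. NARS, which encodes an asparaginyl-tRNA synthetase, was at 125 FPKM in Luc and 142 in WT, while 3NQ had 139 and the library labelled ΔTM had 142. ATP8B1, a phospholipid flippase gene on the same side, was between 0.137 and 0.659 FPKM, which is below the filter of 1 FPKM in every library. On the other side, ALPK2 and MALT1 were at most 0.0369 and 0.0348 FPKM in any library, too low to compare. No other entry of the table overlapped the span of NEDD4L.

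The range of NEDD4L over the 4 libraries, 4.01 on the log2 scale, was reached or passed by 28 other genes, so that 29 genes, or 0.246% of the 11769, ranged this far. The median range of all genes was 0.31, and of the 2295 genes with a mean of at least 50 FPKM it was 0.25. A library was taken to stand alone where the largest step between the ordered values set it apart. For 21 of the 29 genes 1 library stood alone at the high end. That library was Luc for 7, WT for 5, 3NQ for 2 and the library labelled ΔTM for 7. For 5 genes 1 library stood alone at the low end, and 3 were divided 2 against 2. Each library thus stood alone at an end for some of these genes, with NEDD4L itself counted under WT. Luc did so at the high end only.

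The 5 of these 28 genes with the highest mean FPKM were IMMP1L, KIAA1324, AC025262.1, AP000758.1 and UAP1. IMMP1L, which encodes a mitochondrial inner membrane peptidase subunit, went from 18.2 FPKM in the library labelled ΔTM to 22515 in 3NQ, with 9820 in Luc and 5656 in WT. AC025262.1 was listed at 0 in WT only, against 2872 to 4270 FPKM elsewhere, and AP000758.1 was listed at 0 in 3NQ only, against 1318 to 1654 FPKM elsewhere. UAP1, an enzyme gene of UDP-N-acetylglucosamine synthesis, was at 29.98 FPKM in Luc and 3126 in WT, while 3NQ had 51.0 and the library labelled ΔTM had 36.4. UAP1 thus also stood alone in WT.

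**Figure D2:**
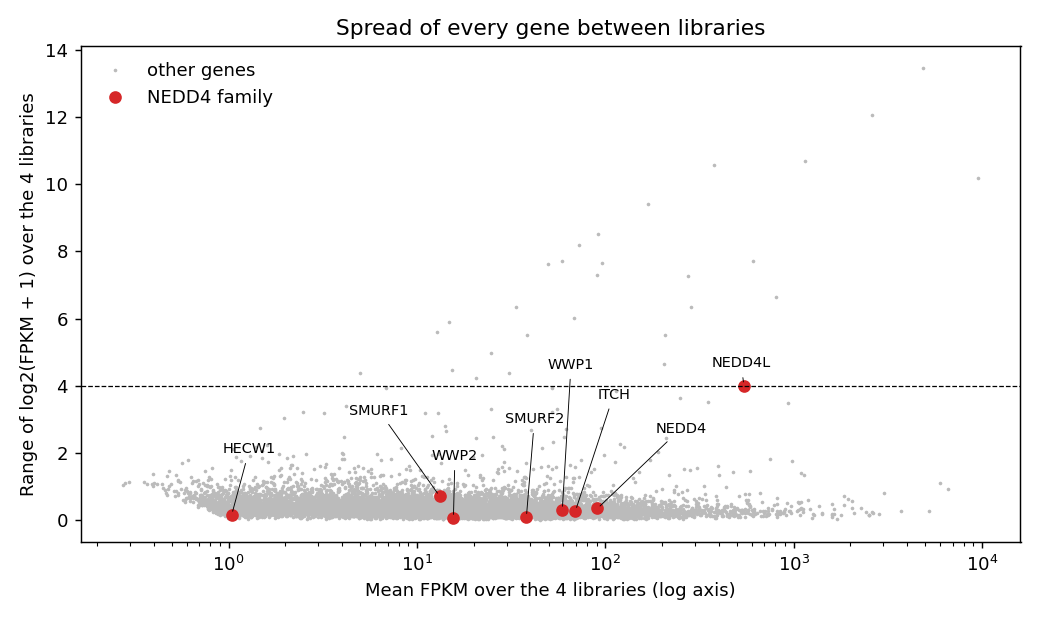
Range of log2(FPKM + 1) over the 4 libraries against the mean FPKM (log axis) for each of the 11769 genes that passed the filter, with the 8 NEDD4 family genes that passed in red and a dashed line at the range of NEDD4L. NEDD4L, at 4.01, sits among 28 other genes on or above the line, and the other 7 family genes lie within the band of most genes.

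Annotated transcripts under 350 bases were counted, because FPKM divides by an effective length that is small for short transcripts. The limit is the lower end of the 350 to 450 bases that the labels give for the finished libraries, which include adapters, so the sequenced inserts were shorter than this. NEDD4L had 62 annotated transcripts of 144 to 8633 bases, 6 of them shorter than 350. Of the other family genes, only SMURF2 had one, a transcript of 339 bases among 7. Of the 28 other genes with as large a range, 24 could be matched to the annotation, and 19 of these (79.2%) had a transcript under 350 bases. Among the remaining 11536 matched genes, 2193 (19.0%) had one, and among those of at least 50 FPKM the share was 24.9%. Within these remaining genes the median log2 range was similar, 0.32 with such a transcript and 0.31 without one. A gene with more annotated transcripts has more chances to hold a short one, and the shares above were not matched for transcript number. The 28 genes were also matched to the annotation less often, at 85.7%, than all tested genes, at 98.2%. Reads per transcript were not used here, and the part of short transcripts in the NEDD4L value was not tested.

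The 3 shortest NEDD4L transcripts of GENCODE v44 are shown where they join the coding sequence, since they hold little of it. The capitals mark bases of coding exon 2 of the MANE Select transcript, and the 24 lower-case bases are those spliced in front of it.
NEDD4L-232: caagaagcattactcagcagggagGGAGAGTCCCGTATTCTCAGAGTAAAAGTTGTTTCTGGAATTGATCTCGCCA
NEDD4L-231: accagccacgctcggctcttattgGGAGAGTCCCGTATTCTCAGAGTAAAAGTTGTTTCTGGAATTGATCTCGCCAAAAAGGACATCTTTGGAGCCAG
NEDD4L-253: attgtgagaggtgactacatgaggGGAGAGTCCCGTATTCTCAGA

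These transcripts are 144, 165 and 185 bases long, with 52, 74 and 21 of their bases in coding exon 2. They span chr18:55712929-55833071, chr18:55712757-55833093 and chr18:55755370-55833040 on the plus strand of GRCh37, each with 2 exons and no coding sequence of its own in the annotation. All 6 short transcripts take in coding exon 2, near the start of the reading frame, and none of them reaches the catalytic codon shown above. This annotation is later than the one the authors used, in which the same transcripts may be absent.

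NEDD4, the founding member, is known for acting on growth factor receptors and on the sodium channel. Its level was 85.0 FPKM in Luc and 102 in WT, while 3NQ had 96.5 and the library labelled ΔTM had 80.2, a highest-to-lowest ratio of 1.27. WT was highest and the library labelled ΔTM lowest, with a log2 ratio of 0.34 between them, where the median range of all genes was 0.31. The log2 ratios against Luc were 0.26 with WT, 0.18 with 3NQ and -0.083 with the library labelled ΔTM. All were within the 1.5-fold limit. The gene (ENSG00000069869) lies on the minus strand of chromosome 15, from 56119120 to 56285944. Although NEDD4 was the closest relative of NEDD4L in the catalytic window, its WT-to-3NQ log2 ratio was 0.079 where that of NEDD4L was 4.01.

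ITCH ubiquitylates JUNB and is known from immune tolerance. It was at 68.4 FPKM in Luc and 78.1 in WT, while 3NQ had 64.4 and the library labelled ΔTM had 67.0. WT was the highest and the others lay close together, with a WT-to-Luc log2 ratio of 0.19. The gene (ENSG00000078747) is on the plus strand of chromosome 20, from 32951041 to 33099198.

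WWP1, which acts on KLF5 and on TGF-β receptors, was at 63.0 FPKM in Luc and 63.3 in WT, while 3NQ had 59.0 and the library labelled ΔTM had 51.2. Luc and WT were nearly equal, with a log2 ratio of 0.0063, and the library labelled ΔTM was lowest, at -0.30 against Luc. WWP1 (ENSG00000123124, chromosome 8, plus strand, 87354967 to 87490649) overlaps RMDN1 at its end. Reads of the overlap cannot be assigned without strand, and RMDN1 was at 32.2 FPKM in Luc and 38.1 in the library labelled ΔTM.

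WWP2, known for ubiquitylating OCT4, varied least of the family. Its level was 16.1 FPKM in Luc and 15.4 in WT, while 3NQ had 15.6 and the library labelled ΔTM had 15.5, a highest-to-lowest ratio of 1.04. All log2 ratios of WWP2 lay between -0.059 and 0.0048. The gene (ENSG00000198373) is on the plus strand of chromosome 16, from 69796209 to 69975644.

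SMURF1 and SMURF2 are named for their action on SMAD proteins, and both bind SMAD7 to reach TGF-β receptors. SMURF1, which also acts on RHOA, was at 13.2 FPKM in Luc and 17.0 in WT, while 3NQ had 12.7 and the library labelled ΔTM had 9.96. WT was highest and the library labelled ΔTM lowest, with Luc and 3NQ close to each other between them. The log2 ratio was 0.34 for WT against Luc, -0.37 for the library labelled ΔTM against Luc and 0.71 for WT against the library labelled ΔTM, or 1.70-fold in FPKM. The last of these passed 1.5-fold and ranked 452 by size among the 11769 genes. SMURF1 (ENSG00000198742) lies on the minus strand of chromosome 7, from 98625061 to 98741723.

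SMURF2 was at 37.7 FPKM in Luc and 39.5 in WT, while 3NQ had 38.1 and the library labelled ΔTM had 37.2. Its highest-to-lowest ratio was 1.06 against 1.70 for SMURF1, and no library stood apart. The gene (ENSG00000108854) lies on the minus strand of chromosome 17, from 62538413 to 62658186, and overlaps CEP95 at its end.

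HECW1 and HECW2 are larger ligases of the family, known mainly from neurons, and HECW2 acts on the p53 relative TP73. HECW1 was at 0.950 FPKM in Luc and 1.04 in WT, while 3NQ had 1.17 and the library labelled ΔTM had 0.990. HECW2 was at 0.663 FPKM in Luc and 0.653 in WT, while 3NQ had 0.506 and the library labelled ΔTM had 0.959. Both genes were thus about or below the filter limit in every library. The highest-to-lowest ratio of HECW2, 1.89, rests on these low values and came to a log2(FPKM + 1) ratio of -0.38 for 3NQ against the library labelled ΔTM. HECW1 (ENSG00000002746) lies on chromosome 7 from 43152198 to 43602938, plus strand, and HECW2 (ENSG00000138411) on chromosome 2 from 197063977 to 197458416, minus strand. The entry AC020571.3 lies within HECW2 on the opposite strand and was at 5.15 to 6.11 FPKM, above HECW2 in every library. Its part in the HECW2 values was not tested.

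Differences were called where FPKM + 1 differed at least 1.5-fold, in either direction. In WT against Luc, 1 of the 8 family genes, NEDD4L, was called, where 6.7% of all genes were. In 3NQ against Luc it was again NEDD4L alone, as the lower gene, against 4.34% of all genes, and in the library labelled ΔTM against Luc the same, against 3.11%. In WT against 3NQ, NEDD4L was the 1 gene called, where 4.47% of all genes were. In WT against the library labelled ΔTM, NEDD4L and SMURF1 were called, both higher in WT, where 7.16% of all genes were. In 3NQ against the library labelled ΔTM, 0 of the 8 were called, where 3.34% of all genes were. NEDD4L chose the family, so nothing is read from its share of these counts. The comparisons share libraries and are not independent of each other.

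**Figure D3:**
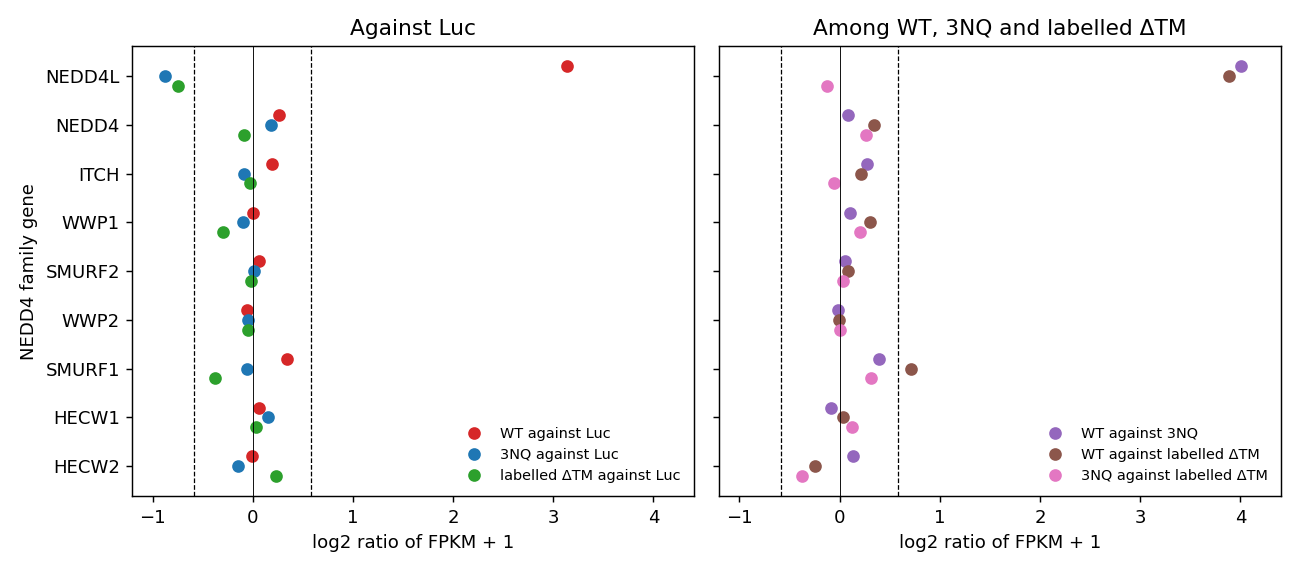
Log2 ratio of FPKM + 1 for each NEDD4 family gene, against Luc (left) and between the other 3 libraries (right), with 1 point per comparison and dashed lines at 1.5-fold. The NEDD4L points at 3.13, 4.01 and 3.88 lie far to the right, SMURF1 at 0.71 is the one further gene past a line, and HECW2 is drawn although it did not pass the filter.

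Without NEDD4L, 7 genes of the family were left that passed. Against Luc, the median of their log2 ratios was 0.067 in the WT library, where all genes had -0.0049. For 3NQ it was -0.043, beside -0.038 over all genes, and in the library labelled ΔTM it was -0.048, beside -0.060. The ratios ran from -0.059 to 0.34 with WT, from -0.093 to 0.18 with 3NQ, and between -0.37 and 0.030 when the library labelled ΔTM was compared. Taken without sign, the median ratio of the 7 genes was 0.067 with WT and 0.085 with 3NQ, where all genes had 0.17 and 0.15. With the library labelled ΔTM it was 0.048, where all genes had 0.13. Between the libraries other than Luc this was not always so. In WT against the library labelled ΔTM the unsigned median of the 7 genes was 0.22, above the 0.19 of all genes. In WT against 3NQ it was 0.090, beside 0.15, and in 3NQ against the library labelled ΔTM 0.13, beside 0.14. The genes set beside these 7 were not matched to them by level.

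Summed over the 9 genes, family transcript was 484 FPKM in Luc and 2070 in WT, while 3NQ had 396 and the library labelled ΔTM had 381. Of this, NEDD4L made up 41.1% in Luc and 84.7% in WT, while 3NQ had 27.3% and the library labelled ΔTM had 30.9%. The other 8 genes summed to 285 FPKM in Luc and 317 in WT, while 3NQ had 288 and the library labelled ΔTM had 263. Nearly all of the WT excess was therefore NEDD4L. Of those 8 genes' sum, NEDD4 made up between 29.8% and 33.5%, ITCH between 22.4% and 25.5%, WWP1 between 19.5% and 22.1% and SMURF2 between 12.5% and 14.1%. The family took 0.0841% of all FPKM in Luc and 0.367% in WT, while 3NQ had 0.0677% and the library labelled ΔTM had 0.0679%.

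**Figure D4:**
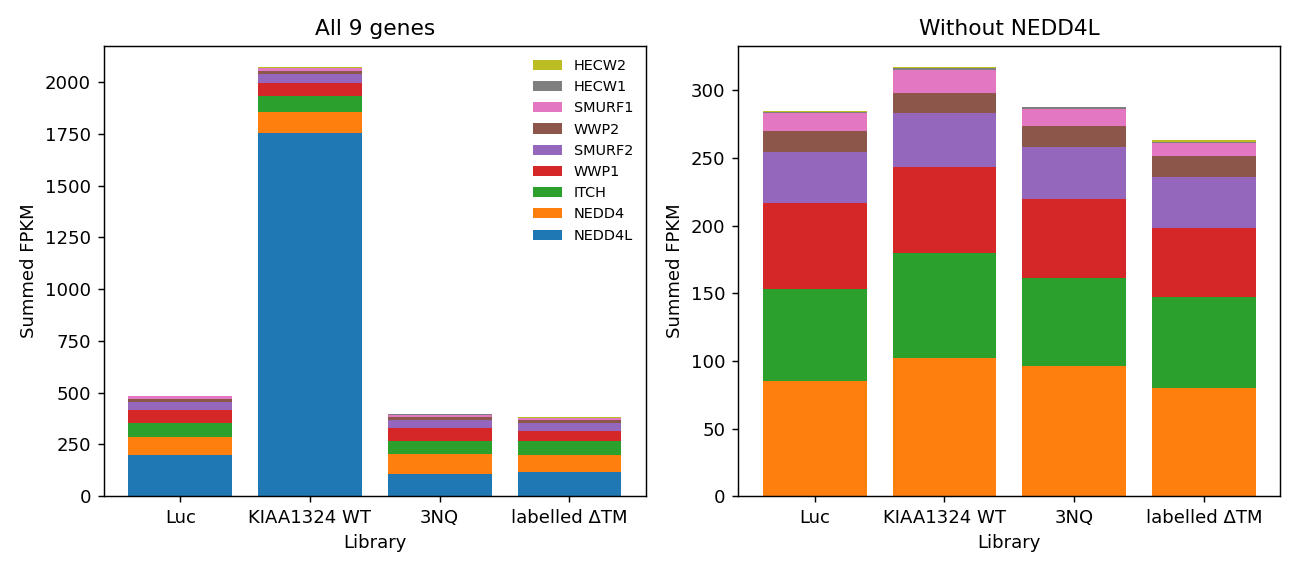
Summed FPKM of the NEDD4 family in each of the 4 libraries, stacked by gene, for all 9 genes (left) and without NEDD4L (right, other axis scale). The WT bar reaches 2070 FPKM with NEDD4L, against 381 to 484 in the other libraries, and without it the bars lie between 263 and 317.

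Genes that work with the family were taken in 9 lists of 163 genes, of which 144 passed the filter. Against Luc, 6 of these (4.17%) were called with WT and 4 (2.78%) with 3NQ, but 0 with the library labelled ΔTM. Their median log2 ratios were 0.033, -0.047 and -0.082 in this order, where all genes had -0.0049, -0.038 and -0.060. The shares called lay below the 6.7%, 4.34% and 3.11% of all genes, which were not matched to the lists by level. The median range was 0.31 over all genes but 0.25 for those with a mean of at least 50 FPKM. Over the 9 lists the median WT-to-Luc ratio ran from -0.076 for the E1 and E2 enzymes, which activate ubiquitin and carry it to the ligases, to 0.11 for the TGF-β receptor and SMAD genes. No gene was called in any comparison with Luc among the 13 E1 and E2 enzymes, the 14 deubiquitylases, the 19 ESCRT and endosomal sorting genes and the 13 TGF-β receptor and SMAD genes that passed.

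Adaptors recruit the ligases to membranes and substrates, and of 16 that passed, 1 was higher and 1 lower in WT than in Luc, and 1 was higher in 3NQ. PMEPA1 is a PY-motif membrane protein and a TGF-β target gene. It was at 5.96 FPKM in Luc and 10.9 in WT, while 3NQ had 10.6 and the library labelled ΔTM had 5.80. Its log2 ratios against Luc were 0.77 (WT) and 0.73 (3NQ). AMOT, a junction scaffold with PY motifs, was at 17.9 FPKM in Luc and 10.03 in WT, while 3NQ had 12.6 and the library labelled ΔTM had 13.5, with Luc highest. The adaptors NDFIP1 and NDFIP2, named for their role after their values were seen, were at 43.5 to 49.7 FPKM and 167 to 203 FPKM.

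Of the 20 other HECT ligases, all of which passed, only HECTD3 was called, at 9.58 FPKM in Luc and 17.5 in WT, while 3NQ had 10.7 and the library labelled ΔTM had 9.09. It stood alone in WT, as NEDD4L did, with a WT-to-Luc log2 ratio of 0.81 where NEDD4L had 3.13.

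The SGK, AKT and 14-3-3 list holds kinases linked to NEDD4L phosphorylation, 14-3-3 proteins that bind phosphorylated NEDD4L, and TSC22D3. Of its 16 genes that passed, only TSC22D3, a glucocorticoid-induced regulator of sodium transport, was called. It was at 0.315 FPKM in Luc and 2.02 in WT, while 3NQ had 0.593 and the library labelled ΔTM had 0.283. TSC22D3 thus passed the filter of 1 FPKM through WT alone, and its ratio rests on low values. SGK1, likewise named for its role after its values were seen, was at 16.2 FPKM in Luc and 19.5 in WT, while 3NQ had 13.9 and the library labelled ΔTM had 19.8, with no difference past 1.5-fold from Luc. Transcript levels give no measure of phosphorylation.

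Ion channels and transporters that the family removes from the membrane were mostly low, and 7 of 15 passed. KCNQ1, a potassium channel gene, was the one called, at 1.17 FPKM in Luc and 1.62 in WT, while 3NQ had 3.08 and the library labelled ΔTM had 1.21. Its 3NQ value was the highest, with a log2 ratio of 0.91 against Luc. SCNN1A, the α subunit of the sodium channel, named for its role, was at 73.6 FPKM in Luc and 72.1 in WT, while 3NQ had 60.5 and the library labelled ΔTM had 76.4, whereas the β and γ subunit genes did not pass.

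Of 26 transcription factor and signalling targets that passed, 2 were higher in WT than in Luc, and 1 was higher and 1 lower in 3NQ. JUN, a subunit of AP-1, was at 15.0 FPKM in Luc and 31.8 in WT, while 3NQ had 24.6 and the library labelled ΔTM had 18.3, and was the gene higher in both. KLF2 is a transcription factor targeted by SMURF1 and WWP1. It was at 0.741 FPKM in Luc and 2.35 in WT, while 3NQ had 0.915 and the library labelled ΔTM had 0.477. KLF2 too passed the filter of 1 FPKM through WT alone, so its ratio rests on low values. ERBB3, a growth factor receptor, was at 74.8 FPKM in Luc and 53.0 in WT, while 3NQ had 48.8 and the library labelled ΔTM had 57.9, with Luc above the others. For ERBB3 the 3NQ-to-Luc log2 ratio was -0.61 and the WT-to-Luc ratio -0.49.

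Profiles most like those of NEDD4L and SMURF1 were sought among the genes that passed, by Euclidean distance between log2(FPKM + 1) profiles centred on each gene's mean over 4 libraries. For NEDD4L the nearest were DNAI1 (distance 0.744), KDM6B (0.798) and TMEM125 (0.884). DNAI1 was at 9.43 FPKM in WT and at most 0.198 elsewhere. KDM6B, a histone demethylase gene, was at 40.0 FPKM in WT and between 3.50 and 4.12 elsewhere, and TMEM125 at 374 FPKM in WT and between 24.9 and 32.3 elsewhere. All of these stood alone in WT, but in none of them was Luc at least 1.5-fold above both 3NQ and the library labelled ΔTM in FPKM, as it was for NEDD4L. For SMURF1 the nearest was PELI3, also a ubiquitin ligase gene, at 7.37 FPKM in Luc and 9.40 in WT, while 3NQ had 6.96 and the library labelled ΔTM had 5.33 (distance 0.0241). MLLT4-AS1 (0.0500), an antisense gene, and RP11-393B14.1 (0.0534) followed. With 4 libraries such a likeness is a description only.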

How the data were processed

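RNA of 4 MKN28 lines was sequenced, 1 library per group. Per the study's methods, the authors filtered reads, aligned what was left by TopHat (GRCh37), and estimated FPKM per gene with Cufflinks 2.1.1 on an Ensembl annotation, with corrections for multiply mapped reads and fragment bias and with non-coding regions masked. The deposited values are these FPKM, normalised for length and library, and no counts were used. Groups were taken from the sample titles.

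Ratios are differences of log2(FPKM + 1) (pseudocount of 1) among genes with at least 1 FPKM in a library, and a call is a difference of at least 1.5-fold. In all, 166 entries repeated the symbol of an earlier entry. For family, list and marker genes the entry of highest mean FPKM was used. Shares, ranks and medians over all genes kept every entry. No test was made. All 9 family genes, every called gene of an accessory list (up to 4 per list), the 3 nearest profiles of called family genes, the genes beside NEDD4L and 5 genes of as large a range were named. The members, lists and rules were chosen with earlier results of these data known. Alternatives were another pseudocount, threshold, filter, scaling or handling of repeated symbols. Sequences and transcript lengths came from GENCODE v44 on GRCh37. Python 3.11.15, numpy 2.4.6, pandas 2.3.3, matplotlib 3.10.9 and Biopython 1.88 were used, and the code was tested on simulated data.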

Additional observations from a re-analysis of the deposited data

Results flagged for a closer look

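NEDD4L lay on both sides of the same Luc library. Its log2 ratio against Luc was 3.13 with WT, whereas it was -0.87 with 3NQ and -0.75 with the library labelled ΔTM. The difference between these was not tested, as each group had 1 library.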

How the results depend on the processing

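Over the alternatives run, 44 of the counts of called family genes stayed within 1.5 times the value given and 4 moved. With a 2-fold threshold, 0 family genes were called in 3NQ against Luc, 0 in the library labelled ΔTM against Luc and 1, NEDD4L, in WT against the library labelled ΔTM. In that last comparison a pseudocount of 5 also gave 1 gene, NEDD4L, and SMURF1 then had a log2 ratio of 0.55. Of the ratios of family genes, 374 stayed on their side of the threshold, 4 fell below it, and no called ratio changed sign. The NEDD4L ratio lay between 3.11 and 3.14 in WT against Luc and between -0.88 and -0.83 in 3NQ against Luc. Of the counts of called accessory genes, 193 stayed and 23 moved, all to counts of 0 to 2.

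No paired analysis was possible because each group had 1 library and the labels carry no replicate numbers, and for the same reason leaving out a replicate was not possible. Depth is unknown, so the precision of low values such as those of HECW1 and HECW2 cannot be given.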
